A study of Homo sapiens with 14 samples.

Results

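The comparison described here asks what a single synonymous codon does to the footprint profile of CFTR, the chloride channel that is defective in cystic fibrosis. In the construct High-Leu558 the UUA codon of Leu558 is replaced by CUC, and the encoded protein stays the same. The High-Leu558 libraries (n = 2) were set against the libraries of the WT construct (n = 5), which makes 7 of the 14 libraries of the series, chosen by the construct named in their titles. Both constructs were overexpressed in HEK293, an immortalized human embryonic kidney cell line. The labels name no further treatment, and they leave unstated whether each library had its own culture. The p-values therefore measure the spread between libraries alone, which may be technical. The exact permutation tests use the 7 libraries, while the edgeR fit takes its spread from all 14. The others carry High-abc, a CFTR with other synonymous codons (n = 5), or High-abc with the native Leu558 codon (n = 2). Those libraries also enter the scaling and the choice of the residues tested in edgeR. The tables list residues of CFTR, so the identity of the cells was not checked.

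Ribosome profiling sequences the stretches of mRNA that ribosomes protect from nuclease, and reads pile up where ribosomes spend more time. UUA is a leucine codon that is used rarely in human genes, and CUC is a leucine codon used more often. Leu558 lies in the first nucleotide-binding domain (NBD1), close behind the signature motif by which ABC transporters take part in ATP binding. A ribosome that waits at a codon can hold up the ribosomes behind it, so the residues before and after the codon are described as well as the codon itself. The genomic copy of CFTR spans 117480025 to 117668665 on chromosome 7 (GRCh38.p14), while the reads described here were from cells that overexpressed a construct. Positions below are residue numbers of the protein to which the authors assigned each read, and values are percentages of all CFTR reads of a library.

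The 7 libraries held between 2647 and 32630 CFTR reads. WT replicate 2 was the deepest at 32630 reads, and the other WT libraries held 5774 (replicate 1), 2647 (replicate 3), 5795 (replicate 4) and 5839 (replicate 5). The High-Leu558 libraries held 10735 and 10157 reads. These are 7.25 and 6.86 reads per residue, so most single residues were thinly covered, and 314 of the 1440 residues used (21 to 1460) had enough reads to be tested. Intervals from read counts cover counting error alone, since no molecular identifiers are mentioned.

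Leu558 was a site of high occupancy in all 5 WT libraries and lost nearly all of its reads in both High-Leu558 libraries. In WT it held 73 reads in replicate 1, which is 1.26% of the library (exact binomial 95% interval 0.992 to 1.59%). Replicate 2 held 301 reads or 0.922% (0.822 to 1.03%) and replicate 3 held 25 reads or 0.944% (0.612 to 1.39%). Replicate 4 held 32 reads or 0.552% (0.378 to 0.779%) and replicate 5 held 36 reads or 0.617% (0.432 to 0.853%). The 5 WT libraries thus differed among themselves by more than counting error, with replicate 1 highest and replicate 4 lowest.

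High-Leu558 replicate 1 held 4 reads at Leu558, 0.0373% (exact binomial 95% interval 0.0102 to 0.0954%). Replicate 2 held 0 of 10157 reads, with an interval of the same kind from 0 to 0.0363%. At the mean WT share these libraries would have held 92.3 and 87.3 reads there. No interval of a High-Leu558 library met an interval of a WT library, and the lowest WT library lay 14.8 times above the higher High-Leu558 library. In occupancy, which is reads relative to the mean residue of the same library, Leu558 stood at 12.8 ± 4.22 (SD, n = 5) in WT and at 0.277 ± 0.392 (SD, n = 2) in High-Leu558. A site ranked 7 of 1440 in WT was therefore below the average residue after the swap.

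**Figure D1:**
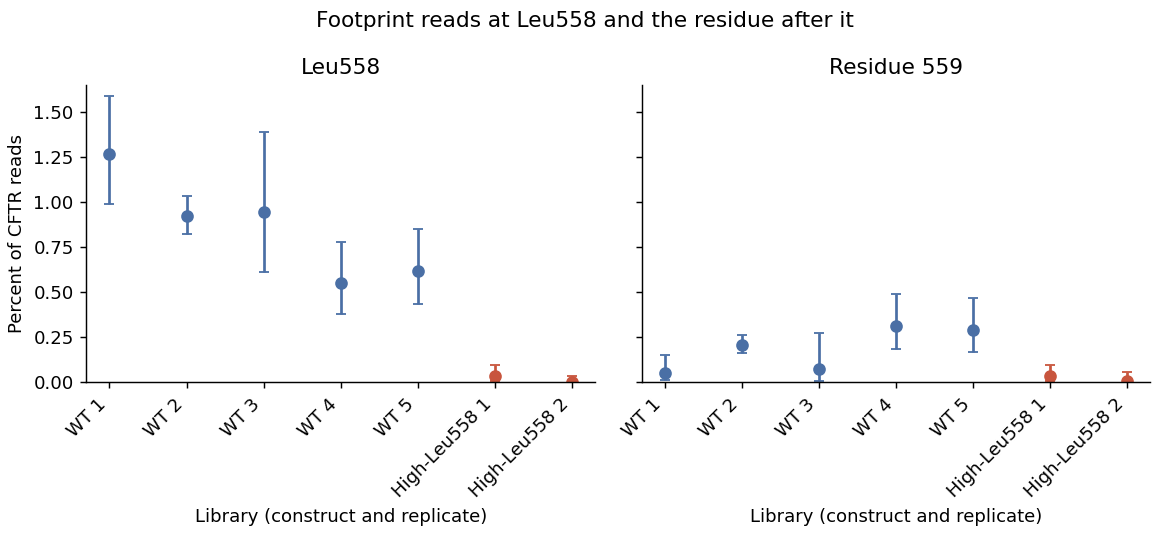
Percent of CFTR reads at Leu558 (left) and at residue 559 (right) in each library; points are single libraries, bars are exact binomial 95% intervals, blue is WT and red is High-Leu558. The WT libraries span 0.552 to 1.26% at Leu558, and the High-Leu558 libraries sit at 0.0373% and 0.

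The edgeR quasi-likelihood fit gave a log2 change of -5.43 at Leu558 (SE 0.96, 95% interval -7.36 to -3.50, adjusted p = 0.00022). In this fit, without the replicate number as a block, it was the single residue of the 314 tested to pass an adjusted p of 0.05, 0.318% of them. An exact two-sided permutation test of the percentages over the 7 libraries gave p = 0.0952, which is the smallest value that 5 libraries against 2 can reach. The fitted size rests on few reads: with replicate 2 left out, the 4 reads of replicate 1 gave a log2 change of -4.52 that did not pass (edgeR adjusted p = 0.208), and that library alone lay 23.1 times below the WT mean. With replicate 1 left out, replicate 2 with its 0 reads lay at least 23.7-fold below the WT mean, by the upper end of its exact binomial interval. Taking 3 reads in that library as the floor gave 29.1-fold.

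Residues without reads were common at this depth, so the 0 in replicate 2 was compared with the other zeros. High-Leu558 replicate 2 had 0 reads at 383 of the 1440 residues and replicate 1 at 219, although their totals were similar. Of the 478 residues that had reads in all 5 WT libraries, 30 had 0 reads in replicate 2 and 7 in replicate 1. Among the zeros of replicate 2, Leu558 was the residue at which the WT mean share predicts most reads (87.3), and the next was residue 1273 with 15.1. In replicate 1 the corresponding residue was 75, with 11.0 reads predicted. In the 5 WT libraries, measured against the other 4, the largest such prediction at a residue with 0 reads ran from 6.65 (residue 570, replicate 4) to 23.0 (residue 148, replicate 2). The zero at Leu558 thus stood where far more reads were predicted than at the other empty residues of these libraries.

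The residue after the swapped codon, 559, held a smaller share in both High-Leu558 libraries than in any WT library but did not pass. It held 3, 68, 2, 18 and 17 reads in WT replicates 1 to 5, or 0.0520%, 0.208%, 0.0756%, 0.311% and 0.291%. It held 4 reads (0.0373%) and 1 read (0.00985%) in the High-Leu558 libraries. How reads were placed on residues is not known here, so reads at 559 and at Leu558 cannot be taken as 2 separate sites. The groups did not overlap, but the lowest WT library was 1.39 times above the higher High-Leu558 library, against 14.8 times at Leu558. The log2 change was -2.95 (SE 0.89, 95% interval -4.74 to -1.17, edgeR adjusted p = 0.261).

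Leu558 and residue 559 together held 1.05% ± 0.183 of reads in WT (SD, n = 5) and 0.0422% ± 0.0457 in High-Leu558 (SD, n = 2). The lowest WT library, at 0.863%, was 11.6 times above the higher High-Leu558 library, at 0.0745%. The share of the pair varied less between WT libraries than the share of either residue relative to its mean.

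The other residues within 5 of Leu558 held little in both groups. Residues 553 to 556 and 560 to 563 each held between 0.0198% and 0.110% on average in WT and between 0 and 0.0725% in High-Leu558, and the groups overlapped at each of them. Residue 554, 4 before the codon, held 0.0701% ± 0.0550 in WT (SD, n = 5) and 0.0725% ± 0.0367 in High-Leu558 (SD, n = 2). Residue 557, immediately before the codon, held 3, 12, 1, 0 and 3 reads in WT replicates 1 to 5 and 0 reads in both High-Leu558 libraries. That residue overlapped through WT replicate 4 and did not pass (edgeR adjusted p = 0.883). Residue 561, 3 after the codon, held 0.110% ± 0.0566 in WT and 0.0482% ± 0.0154 in High-Leu558, with a log2 change of -1.10 (SE 0.77; adjusted p = 0.883 in edgeR).

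None of the other peaks of the neighbourhood passed in edgeR without the replicate number as a block, and their intervals were wide. The peaks were picked after their values were seen. The highest peak within 40 residues of the codon other than Leu558 was residue 522, which held 0.537%, 0.490%, 0.907%, 0.362% and 0.411% in WT replicates 1 to 5 and 0.484% and 0.522% in the High-Leu558 libraries. Both High-Leu558 values lay inside the WT range, and the log2 change was -0.08 (SE 0.63, 95% interval -1.34 to 1.19, edgeR adjusted p = 0.986). Residue 543, 15 before the codon, held 0.232% ± 0.133 in WT (SD, n = 5) and 0.148% ± 0.000964 in High-Leu558 (SD, n = 2). The High-Leu558 libraries held 16 and 15 reads there, so counting error exceeds that SD. The log2 change at residue 543 was -0.71 (SE 0.69). Residue 564, 6 after the codon, held 0.187% ± 0.0575 in WT (SD, n = 5) and 0.204% ± 0.107 in High-Leu558 (SD, n = 2). Residue 576, 18 after it, held 0.251% ± 0.0748 and 0.139% ± 0.0149, with a log2 change of -0.84 (SE 0.65). Residue 579, 21 after it, held 0.302% ± 0.0908 and 0.244% ± 0.0108. Residue 583, 25 after it, held 0.227% ± 0.126 and 0.0862% ± 0.00337, and its log2 change was -1.42 (SE 0.74, adjusted p = 0.883 in edgeR). Each High-Leu558 library held 9 reads at residue 583, so counting error exceeds the SD there too.

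**Figure D2:**
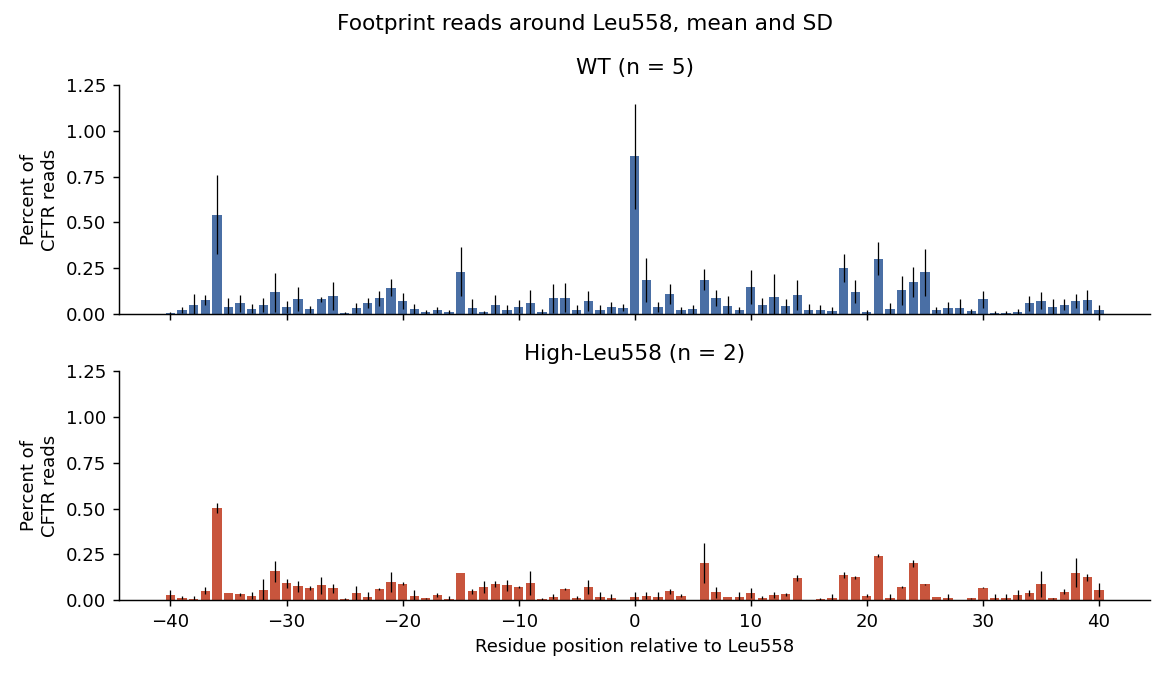
Mean percent of CFTR reads at each residue from 40 before to 40 after Leu558 (position 0) in WT (top) and High-Leu558 (bottom); bars of the chart are group means and thin lines are SD. The bar at position 0 stands at 0.860% in WT and 0.0186% in High-Leu558, while the peak 36 residues before it stands at 0.541% in WT and 0.503% in High-Leu558.

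Reads were also summed in windows of 10, and the window that holds the codon (551 to 560) fell. It held 1.59%, 1.44%, 1.40%, 1.23% and 1.58% of reads in WT replicates 1 to 5, and 0.326% and 0.197% in the High-Leu558 libraries. The log2 change was -2.53 (SE 0.47, 95% interval -3.52 to -1.55, edgeR adjusted p = 0.00369). In this fit, without the replicate number as a block, the window was the single one of 144 to pass (0.694%). The call was lost without High-Leu558 replicate 1 (log2 change -2.91, edgeR adjusted p = 0.0723) and without replicate 2 (log2 change -2.28, edgeR adjusted p = 0.370), and in windows of 20 residues (log2 change -1.15, edgeR adjusted p = 0.0792).

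Most of this fall lay at the codon itself. Of the 1.18 percentage points that the window lost, 0.841 were lost at Leu558, 0.164 at residue 559 and 0.179 at the other 8 residues, so the pair carried 84.9% of the loss. Without the pair, the window held 0.277%, 0.306%, 0.378%, 0.362% and 0.668% in WT replicates 1 to 5 and 0.252% and 0.187% in High-Leu558. Both High-Leu558 libraries were below every WT library, though the lowest of these was close to them. The log2 change of the remainder was -0.91 (SE 0.47, 95% interval -1.89 to 0.07) and did not pass (edgeR adjusted p = 0.933). With the pair taken out, neither DESeq2 nor edgeR without the replicate number as a block called any of the 144 windows (0 each). In that edgeR fit 4 windows (2.78%) lay under an unadjusted p of 0.05. With the replicate number as a block, edgeR called 19 of the 144 windows, but not the remainder of the window from 551 to 560 (adjusted p = 0.277).

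The stretches before and after the codon were then compared with the pair left out. In the 30 residues before Leu558 (528 to 557) the libraries held 1.42%, 1.35%, 1.51%, 1.85% and 1.95% in WT replicates 1 to 5 and 1.80% and 1.35% in High-Leu558, and the groups overlapped (exact permutation p = 0.667). In the 30 residues after residue 559 (560 to 589) they held 2.65%, 2.63%, 2.04%, 2.11% and 2.88% in WT, against 1.78% and 1.54% in High-Leu558. Both High-Leu558 libraries lay below every WT library there, a difference of -0.803 percentage points with an exact permutation p of 0.0952, the smallest possible, and 0.190 after Benjamini-Hochberg adjustment over the 2 stretches. The ratio of the later to the earlier stretch, which was not a planned comparison, was 1.56 ± 0.343 in WT (SD, n = 5) and 1.06 ± 0.105 in High-Leu558 (SD, n = 2). The groups nearly met, at 1.14 for the lowest WT library and 1.14 for the higher High-Leu558 library.

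In the main comparison, over 6 bins of 10 residues, none passed by exact permutation (p from 0.190 to 0.667, adjusted 0.571 to 0.667). The groups overlapped in each bin. The 10 residues before Leu558 (548 to 557) held 0.471% ± 0.124 in WT and 0.372% ± 0.0938 in High-Leu558. The 10 residues before those (538 to 547) held 0.487% ± 0.0526 and 0.597% ± 0.0782. The bins after residue 559 held 0.729% ± 0.171 against 0.428% ± 0.132 (560 to 569), 0.984% ± 0.279 against 0.731% ± 0.0458 (570 to 579) and 0.749% ± 0.271 against 0.498% ± 0.00594 (580 to 589; SD, n = 5 and n = 2 throughout). All 3 later bins were lower on average in High-Leu558, by 0.251 to 0.300 points, and each difference was smaller than the range of the WT libraries. An SD over 2 libraries is uncertain, and the one at 580 to 589 rests on 104 reads in High-Leu558.

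The scaling of the libraries (TMM) places the typical log2 change near 0, so it draws the directions of change toward an even split. Away from the codon, 313 tested residues remained, of which 165 had a lower and 148 a higher fitted level in High-Leu558. None of them passed in DESeq2 or in edgeR without the replicate number as a block. The smallest adjusted p among them in that edgeR fit was 0.261, at residue 559. With the replicate number as a block, edgeR called 19 of the 314 residues, Leu558 among them, and residue 559 had an adjusted p of 0.0600. The other residues called with the block are not named here. Without the block, 11 of the 314 residues lay under an unadjusted p of 0.05 in edgeR (3.5%), 9 lower (2.87%) and 2 higher (0.637%). Leu558 and its neighbours 557 and 559 were among the 9 lower ones. With Leu558 and residue 559 counted in, the High-Leu558 libraries lay entirely below WT at 10 residues tested (3.18%) and entirely above at 13 (4.14%). Over all 1440 residues, most of which had too few reads to test, they lay entirely below at 25 (1.74%) and entirely above at 87 (6.04%). The 87 had a median of 11 reads over all 5 WT libraries, and at 75 of them at least 1 WT library had 0 reads. A residue cannot lie entirely below when a WT library has 0 reads, so the counts in the 2 directions are not alike in what they require. By exact permutation, 5 libraries against 2 separate fully in either direction with a probability of 0.0952 where no values tie. With both directions together, the share of tested residues that separated does not exceed it. These counts do not show that the other residues stayed the same: the median SE of a log2 change was 0.74, and 149 of the 313 residues had a 95% interval inside -2 to 2. In windows of 10 the median SE was 0.38, and 60 of 144 windows had an interval inside -1 to 1. These SEs were derived from the F statistic and are unreliable where the log2 change is near 0. Residue 1019, at 0.000394, had an SE of 6.31, and residue 1197, at 0.00089, had an SE of 0.299. The counts of intervals share this limit.

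**Figure D3:**
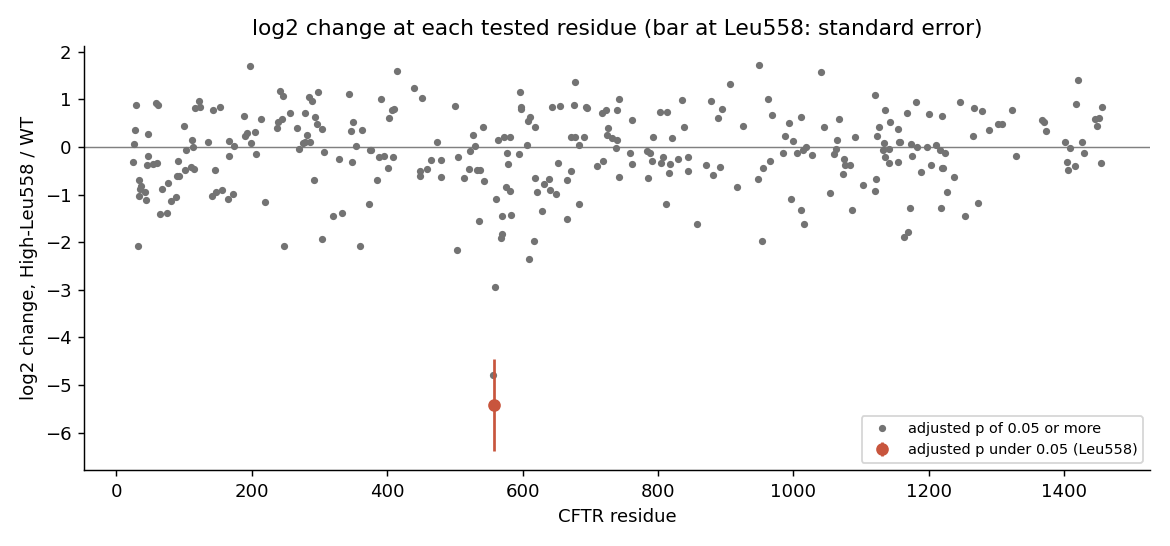
log2 change from WT to High-Leu558 at each of the 314 tested residues, along the protein, in edgeR without the replicate number as a block. Leu558 (red, with its standard error) lies at -5.43, and the gray points did not pass an adjusted p of 0.05; the gray point at -4.80 is residue 557, with 0 reads in High-Leu558, so its size is no bound.

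The residues that came next in edgeR without the replicate number as a block lay in several domains, and none passed in that fit. Residue 1169 in the second membrane domain held 0.242%, 0.264%, 0.264%, 0.138% and 0.171% in WT replicates 1 to 5 and 0.0559% and 0.0689% in High-Leu558. The groups did not overlap, and the log2 change was -1.78 (SE 0.71; adjusted p = 0.883 in edgeR). Residue 304 in the first membrane domain held 0.178% ± 0.0908 in WT and 0.0427% ± 0.0186 in High-Leu558, and its log2 change was -1.93 (SE 0.82) with the same adjusted p.

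Residues 503, 610, 568 and 617, all in NBD1, had log2 changes of -2.16 (SE 0.88), -2.35 (SE 1.05), -1.92 (SE 0.95) and -1.98 (SE 1.00). Residue 953 in the second membrane domain had -1.98 (SE 0.85). At 503, 610 and 953 the groups overlapped. All of these share the adjusted p of 0.883 in edgeR.

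On the higher side, residue 198 in the first membrane domain held 0.0509% ± 0.0419 in WT and 0.186% ± 0.0266 in High-Leu558, a log2 change of 1.70 (SE 0.77). Residue 677 in the regulatory region, the segment of CFTR that is phosphorylated by protein kinase A, held 0.115% ± 0.0818 and 0.287% ± 0.0294, a log2 change of 1.35 (SE 0.65). Neither passed (edgeR adjusted p = 0.883). Both High-Leu558 libraries exceeded all 5 WT libraries at each, as at 13 of the 314 residues tested (4.14%). Residues picked for a low p tend to separate in this way, so the separation adds no support. The next 8 higher residues, 949, 1041, 596, 440, 298, 743, 1121 and 344, had log2 changes between 1.02 and 1.72 and unadjusted p from 0.0645 to 0.140 in edgeR. At 949, 1041, 440 and 344 the High-Leu558 libraries exceeded all WT libraries, and at the other 4 the groups overlapped.

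**Figure D4:**
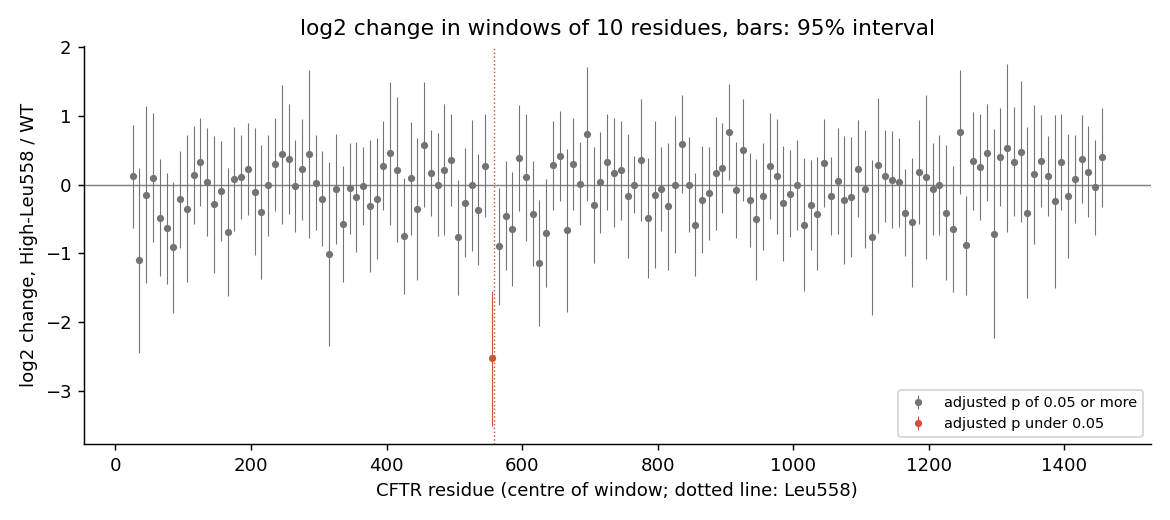
log2 change from WT to High-Leu558 in windows of 10 residues along CFTR; points are fitted changes, bars are 95% intervals and the dotted line is the position of Leu558. The window from 551 to 560 (red) lies at -2.53, and the other windows lie between -1.14 and 0.77.

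Under an unadjusted p of 0.05 there were 5 windows (3.47%), 4 lower (2.78%) and 1 higher (0.694%), the one at the codon included. The window next to it, 561 to 570, held 0.782% ± 0.188 in WT and 0.439% ± 0.0911 in High-Leu558, a log2 change of -0.90 (SE 0.41). The window from 621 to 630 in the last part of NBD1 held 0.829% ± 0.275 and 0.392% ± 0.0117, a log2 change of -1.14 (SE 0.44), with overlap through 1 low WT library at 0.362%. The window from 1251 to 1260 in the second nucleotide-binding domain (NBD2) held 0.522% ± 0.104 and 0.289% ± 0.144, a log2 change of -0.89 (SE 0.34). The window from 901 to 910 in the second membrane domain was higher, at 0.212% ± 0.0643 and 0.370% ± 0.0754, a log2 change of 0.76 (SE 0.34). In edgeR the adjusted p of these 4 windows ran from 0.847 to 0.936. Groups did not overlap in 6 windows on the lower side (4.17%) and in 3 on the higher side (2.08%). Together these shares do not exceed the 0.0952 that exact permutation gives for full separation in either direction.

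The most covered sites of the protein were largely shared between the constructs. Of the 10 residues with the highest mean occupancy, 7 were shared between WT and High-Leu558, and of the top 50 there were 36. Residue 1308 in NBD2 was first in both, with 3.67%, 1.87%, 1.28%, 3.30% and 2.23% in WT replicates 1 to 5 and 3.76% and 3.12% in High-Leu558. Residue 948 in the second membrane domain was second in both, with 1.32%, 2.93%, 2.61%, 1.24% and 1.42% in WT, against 1.02% and 1.36% in High-Leu558. The High-Leu558 values overlapped the WT range at both sites.

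Residues 375, 732 and 1075 kept places among the first 6 in either group, with ratios of High-Leu558 to WT of 0.955, 1.13 and 0.869. Residue 1011 moved from rank 3 to rank 16, from 1.17% ± 0.668 to 0.482% ± 0.333. Its log2 change of -1.33 (SE 0.68) did not pass (edgeR adjusted p = 0.883), and WT replicates 4 and 5 lay at 0.449% and 0.599%, below High-Leu558 replicate 1 at 0.717%. Residue 33 moved from rank 8 to rank 27, from 0.799% ± 0.656 to 0.379% ± 0.0622, with WT replicate 3 at 1.96% and the other WT libraries between 0.380% and 0.585%. Residues 26 and 388 were among the first 10 in both groups, with ratios of 1.07 and 0.855. Residues 245, 289 and 608 were among the first 10 in High-Leu558 and not in WT. Residue 245 held 0.436% ± 0.352 in WT and 0.655% ± 0.0488 in High-Leu558, and the ratios at 289 and 608 were 1.90 and 1.42. The groups overlapped at all of these. Leu558 itself moved from rank 7 to rank 978.

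Among the 50 residues most covered in WT, Leu558 had a ratio of High-Leu558 to WT of 0.0217. For the other 49 this ratio ran from 0.368 (residue 666) to 1.90 (residue 289), with a median of 0.863, and 35 of them were below 1. These 50 were chosen on their WT level, and residues picked for being high in one group tend to lie lower in another, so the median is a description. Single WT libraries ranged from 0.0866 to 3.40 times the WT mean over the same 50 residues, and at Leu558 from 0.642 to 1.47 times. Besides Leu558, residue 88 was the one member of the 50 at which both High-Leu558 libraries lay below all WT libraries (2 of 50, 4%), with 0.685% ± 0.140 in WT and 0.332% ± 0.0739 in High-Leu558 and a log2 change of -1.04 (SE 0.65; adjusted p = 0.883 in edgeR).

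**Figure D5:**
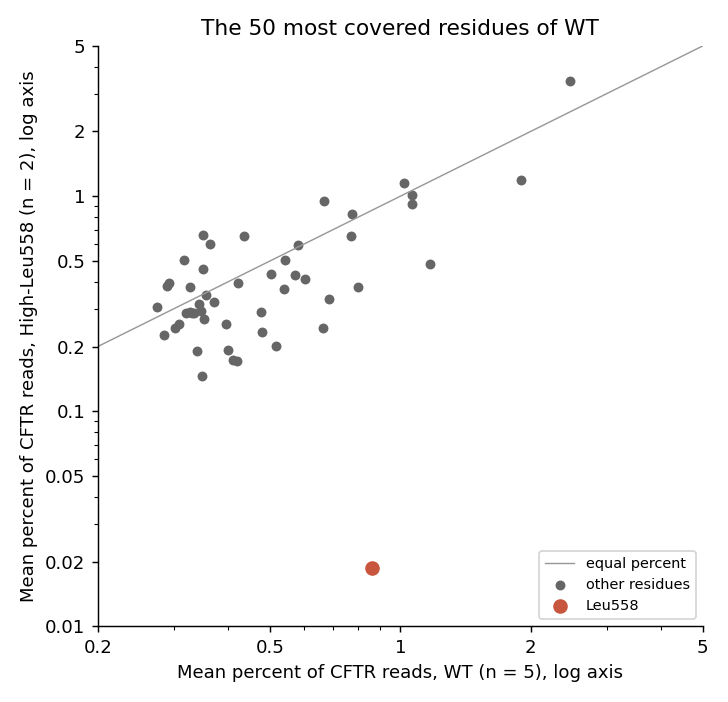
Mean percent of CFTR reads in High-Leu558 (n = 2) against WT (n = 5) for the 50 residues most covered in WT, both axes logarithmic; the line marks equal percentages. Leu558 (red) lies at 0.860% in WT and 0.0186% in High-Leu558, and the other points have ratios between 0.368 and 1.90.

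Larger regions of the protein were compared next; they end at rounded residue numbers and approximate the domains. The first part of NBD1 (391 to 500) held 5.58%, 4.68%, 4.76%, 5.71% and 5.89% of reads in WT replicates 1 to 5 and 6.51% and 5.95% in High-Leu558. The alpha-subdomain region that follows (501 to 560) held 4.14%, 4.21%, 4.91%, 4.31% and 5.27% in WT, against 3.33% and 3.04% in High-Leu558. In both regions the groups did not overlap, in opposite directions, with an exact permutation p of 0.0952, the smallest possible, and 0.381 adjusted over 8 regions.

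Much of the lower share of the alpha-subdomain region lay at the codon. Without Leu558 and residue 559 it held 3.52% ± 0.620 in WT (SD, n = 5) and 3.14% ± 0.155 in High-Leu558 (SD, n = 2), with both High-Leu558 libraries inside the WT range (exact permutation p = 0.571). The last part of NBD1 (561 to 650) held 6.50% ± 0.780 and 5.37% ± 0.488, and overlapped (adjusted exact permutation p = 0.381).

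The remaining 5 regions overlapped between the groups. The N-terminal region held 6.37% ± 1.71 in WT and differed by -0.970 points in High-Leu558. The first membrane domain held 23.1% ± 1.12 in WT and 23.0% ± 0.216 in High-Leu558, and the second held 24.3% ± 1.80 and 23.7% ± 2.31. The regulatory region held 12.4% ± 0.728 and 13.4% ± 0.841, and the NBD2 and C-terminal region 14.4% ± 2.35 and 16.5% ± 0.421 (SD, n = 5 and n = 2; adjusted exact permutation p from 0.381 to 1).

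The share of reads before the codon, of those before and after it without the pair, was 39.9% ± 1.88 in WT (SD, n = 5) against 39.0% ± 0.544 with the swapped codon (SD, n = 2), with an exact permutation p of 0.571. The mean position of the reads, scaled so that -1 is residue 21 and 1 is residue 1460, was -0.0574 ± 0.0372 and -0.0287 ± 0.0122 (exact permutation p = 0.381). High-Leu558 replicate 2 lay inside the WT range of -0.112 to -0.0204, and replicate 1 at -0.0201 just beyond it. The summed profiles of the 2 groups differed by at most 2.92 percentage points, reached at residue 673, where High-Leu558 was lower. Pairs of WT libraries differed by up to 2.50 to 7.49 points, with a median of 4.88 over 10 pairs, and pairs of a WT with a High-Leu558 library by up to 1.68 to 7.43 points, with a median of 3.98.

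The likeness of whole profiles over the 1440 residues had overlapping ranges between constructs and within WT. As a description across residues, which are not independent replicates and share library depth and sequence, Spearman's rho averaged 0.582 over the 10 pairs of a WT with a High-Leu558 library (0.417 to 0.740). It averaged 0.522 over the 10 pairs within WT (0.439 to 0.658), and it was 0.683 between the High-Leu558 libraries. The pair most alike across constructs was WT replicate 4 with High-Leu558 replicate 1 (0.740), and the least alike was WT replicate 3, the shallowest, with High-Leu558 replicate 2 (0.417).

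Leu558 was also read in the libraries of the High-abc construct, a version of CFTR with other synonymous codons. There it held 0.0297% ± 0.0154 (SD, n = 5), and 0.282% ± 0.0713 (SD, n = 2) where the High-abc sequence carried the native codon, against 0.0186% ± 0.0263 (SD, n = 2) in High-Leu558. Residue 559 held 0.0190% ± 0.0193 and 0.389% ± 0.0583 in those groups, against 0.0236% ± 0.0194 in High-Leu558.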

How the data were processed

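Footprints were made with RNase I, per the labels' protocols, and HISAT2 and hg38 are named without a version or role in the submitters' processing notes. Per the file headers, the authors deposited a read count per CFTR residue and a percent of the CFTR-mapped reads. That percent matched the one recomputed from the counts within 0.0005. Residues not listed were taken as 0. Which sequence reads were mapped to, and how a read was placed on a residue, is not given in the sources used here.

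Tests covered residues 21 to 1460. Counts per residue and per window of 10 were fitted with edgeR 4.0.16 (R 4.3.3): TMM, filterByExpr, quasi-likelihood test, all 14 libraries with 1 term for each of the 4 groups, Benjamini-Hochberg at 0.05. An SE is the log2 change divided by the square root of F. Libraries of a group varied beyond counting error by 53.4% per residue and 31.2% per window. Shares were compared by exact two-sided permutation (Python 3.11.15). The edgeR step was tested on simulated counts. DESeq2 1.42.0 and other settings were alternatives. Members, lists and tests were chosen with earlier results of these data known; named residues were Leu558, those within 5, all passing, the 10 with lowest p in each direction and the 10 highest by occupancy. The local peaks, the zeros and the top 50 were described after their values were seen. A test by codon was planned and not run, as no coding sequence was used here. No 2 libraries were identical.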

Additional observations from a re-analysis of the deposited data

Results flagged for a closer look

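Each of 39 sets of values over the 5 WT libraries was searched for a value set apart (Dixon's criterion), and 4 held one, where chance marks about 1 in 20. The total of WT replicate 2 was 32630 reads, against 2647 to 5839 in the remaining WT libraries. In the window from 551 to 560 without Leu558 and residue 559, WT replicate 5 held 0.668%, and the others 0.277 to 0.378%. Without that library the log2 change of this remainder was -0.67 (edgeR adjusted p = 0.865). At residue 553 WT replicate 1 held 0.0693% (4 reads), the others up to 0.0173%, with 4 reads in replicate 2. At residue 555 WT replicate 5 held 0.0685% (4 reads), the others up to 0.0184%, with 6 reads in replicate 2. With so few reads, the rate of 1 in 20 need not hold at these residues.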

How the results depend on the processing

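The causes of the changes below were not tested. Leaving out single WT or High-Leu558 libraries gave 0 to 1 residues (0 without High-Leu558 replicate 2), 0 to 1 windows (0 without either High-Leu558 replicate), -9.27 to -4.52 for the log2 change at Leu558 and -2.91 to -2.28 for its window, where the value with replicate 2 alone at 0 reads is no bound and a lone library is assumed to vary like the other groups. Windows of 20 residues gave 0 windows and -1.15. The replicate number used as a block gave 19 of 314 residues, 18 of 144 windows and, without the pair at Leu558, 19 of 144 windows. WT and High-Leu558 share only 2 numbers, with r = 0.0592 and 0.0233 between deviations from the group means, too few to show pairing. Same-numbered WT and High-abc libraries, which are in that fit too, gave r from 0.424 to 0.584 in 5 pairs (median of other pairs -0.182), so the numbers pair those 2 groups. The log2 change at Leu558 passed under the other 14 of 15 settings (library totals, TMM without NBD1, DESeq2, 2 filters, the ends kept, the 2 groups alone, the block and 6 libraries left out in turn). Differences that did not pass turned sign, in percentage points. The first membrane domain gave 0.0036 without the most covered 1% of residues, 0.662 with boundaries moved by 10 residues and -0.428 to 0.322 with a library left out (above 0 without WT replicate 2, 0.322, or High-Leu558 replicate 1, 0.0518). The second gave 0.676 without the most covered residues and -2.20 to 1.07 with a library left out (above 0 without WT replicate 1, 0.0995, or High-Leu558 replicate 2, 1.07). The bin from 528 to 537 gave -0.156 to 0.0495, the latter without High-Leu558 replicate 2. The alpha-subdomain region without the pair was an alternative added after seeing the data. The shallowest library held 1.79 reads per residue, which limits what single residues can show. The planned test by codon, with its alternatives, was not run.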

Other observations

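The windows on either side of the codon were counted after their values were seen, so the counts are descriptions. Of the 9 windows of 10 residues from 561 to 650, 6 had a lower fitted level in High-Leu558, with a median log2 change of -0.45 and a range from -1.14 to 0.39. Of the 9 windows from 461 to 550, 4 were lower, with a median of 0.00 and a range from -0.77 to 0.35. Over all 144 windows 73 were lower, with a median of 0.00, which the scaling (TMM) largely sets. None of these 18 flanking windows passed in edgeR without the replicate number as a block.

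The largest gains in share were at residue 1308 (0.973 points), residue 289 (0.313 points) and residue 608 (0.282 points). Residue 289 held 0.350% ± 0.177 in WT (SD, n = 5) and 0.663% ± 0.358 in High-Leu558 (SD, n = 2), and residue 608 held 0.667% ± 0.335 and 0.949% ± 0.0778. The largest losses after Leu558 (0.841 points) were at residues 948 (0.716 points) and 1011 (0.688 points). Each of these 5 residues overlapped between groups. The High-Leu558 libraries differed from each other by more than 2-fold, with 0.5 added to each occupancy, at 59 of the 314 tested residues.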
